A study of Mus musculus with 8 samples.

Results

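The 10 genes Igf2, H19, Igf2r, Grb10, Cdkn1c, Plagl1, Dlk1, Peg3, Mest and Peg10 are imprinted genes with roles in growth of the embryo. They were taken by name from the array files as every non-control probe whose gene name equals 1 of the 10. This gave 24 probes of the 42754 that passed the background filter and 10 genes of 28940. H19 had 7 probes, Plagl1 4, Mest 3, Dlk1, Peg3 and Peg10 2 each, and the others 1 each. All 24 probes were well above background on all 8 arrays, so none passed through 1 group alone.

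The arrays came from C57BL/6 mouse embryos at E10.5, midgestation. The study asked how conditional loss of Geminin, the replication licensing inhibitor encoded by Gmnn, changed transcript levels in 2 tissues cut out separately with a laser, the spinal neural tube and the paraxial tissue beside it. Each genotype was represented by 2 embryos, and each embryo gave a neural tube array and a paraxial array, which makes 4 groups of 2 arrays. The mutants carried the genotype label "fl/fl; cre/o" and the other embryos the label wild type. The Cre driver and the deleted part of Gmnn are not given in the sources used here, so it is not known here in which cells of either tissue the allele was recombined, or whether floxed embryos without Cre resemble the wild type.

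Imprinted genes are transcribed mainly from the copy inherited from 1 parent. In this group Igf2, Dlk1, Peg3, Mest, Plagl1 and Peg10 are known as paternally expressed, and H19, Igf2r, Cdkn1c and Grb10 as maternally expressed, with Grb10 read from the paternal copy in neurons. Many paternally expressed members promote fetal growth and many maternally expressed ones restrain it, and the group is known for high levels in embryonic mesoderm that fall after birth. The arrays read total transcript and not the parental copies, so none of the values below speak to imprinting itself.

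Values are the log2 of the processed red-channel signal, scaled so that each array has the same 75th percentile. Differences between groups are on this log2 scale, where 1 is a doubling, and are given with the standard error (SE) of a limma fit over all 8 arrays. A gene is called where its Benjamini-Hochberg adjusted p over all 28940 genes is under 0.05. The share of probes well above background lay between 71.5% and 78.0% per array. Neural tube progenitor markers were called higher in neural tube for 15 of 15 genes (median 1.95). Sclerotome and mesenchyme markers were called lower there for 15 of 17 (median -2.34). In that comparison, the mean of genotypes, 12.0% of all genes were called. Gmnn itself was lower in mutants by -0.35 ± 0.25 in neural tube and by -0.63 ± 0.25 in paraxial tissue, and neither difference was called (limma adjusted p = 0.921 and 0.995). Precision is limited by the number of embryos, 2 of each genotype.

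Between the tissues, most of the 10 genes were lower in neural tube. Averaged over the genotypes, 7 of the 10 genes were called lower in neural tube and none was called higher: Igf2, Dlk1, Peg3, H19, Peg10, Mest and Igf2r. Of all genes tested, 12.0% were called in that comparison, 1739 lower in neural tube and 1720 higher. The median difference of the 10 genes (neural tube minus paraxial tissue) was -0.91, beside -0.021 over all genes. The brightest 10% of genes by mean level hold 8 of these 10. Of those bright genes 76.1% were lower in neural tube (median -0.11), and 3.9% were called. Grb10, Cdkn1c and Plagl1 were not called. All 4 paraxial arrays lay above all 4 neural tube arrays for 6 of the 10 genes (Igf2, H19, Dlk1, Peg3, Mest and Igf2r), beside 4.69% of all genes.

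**Figure D1:**
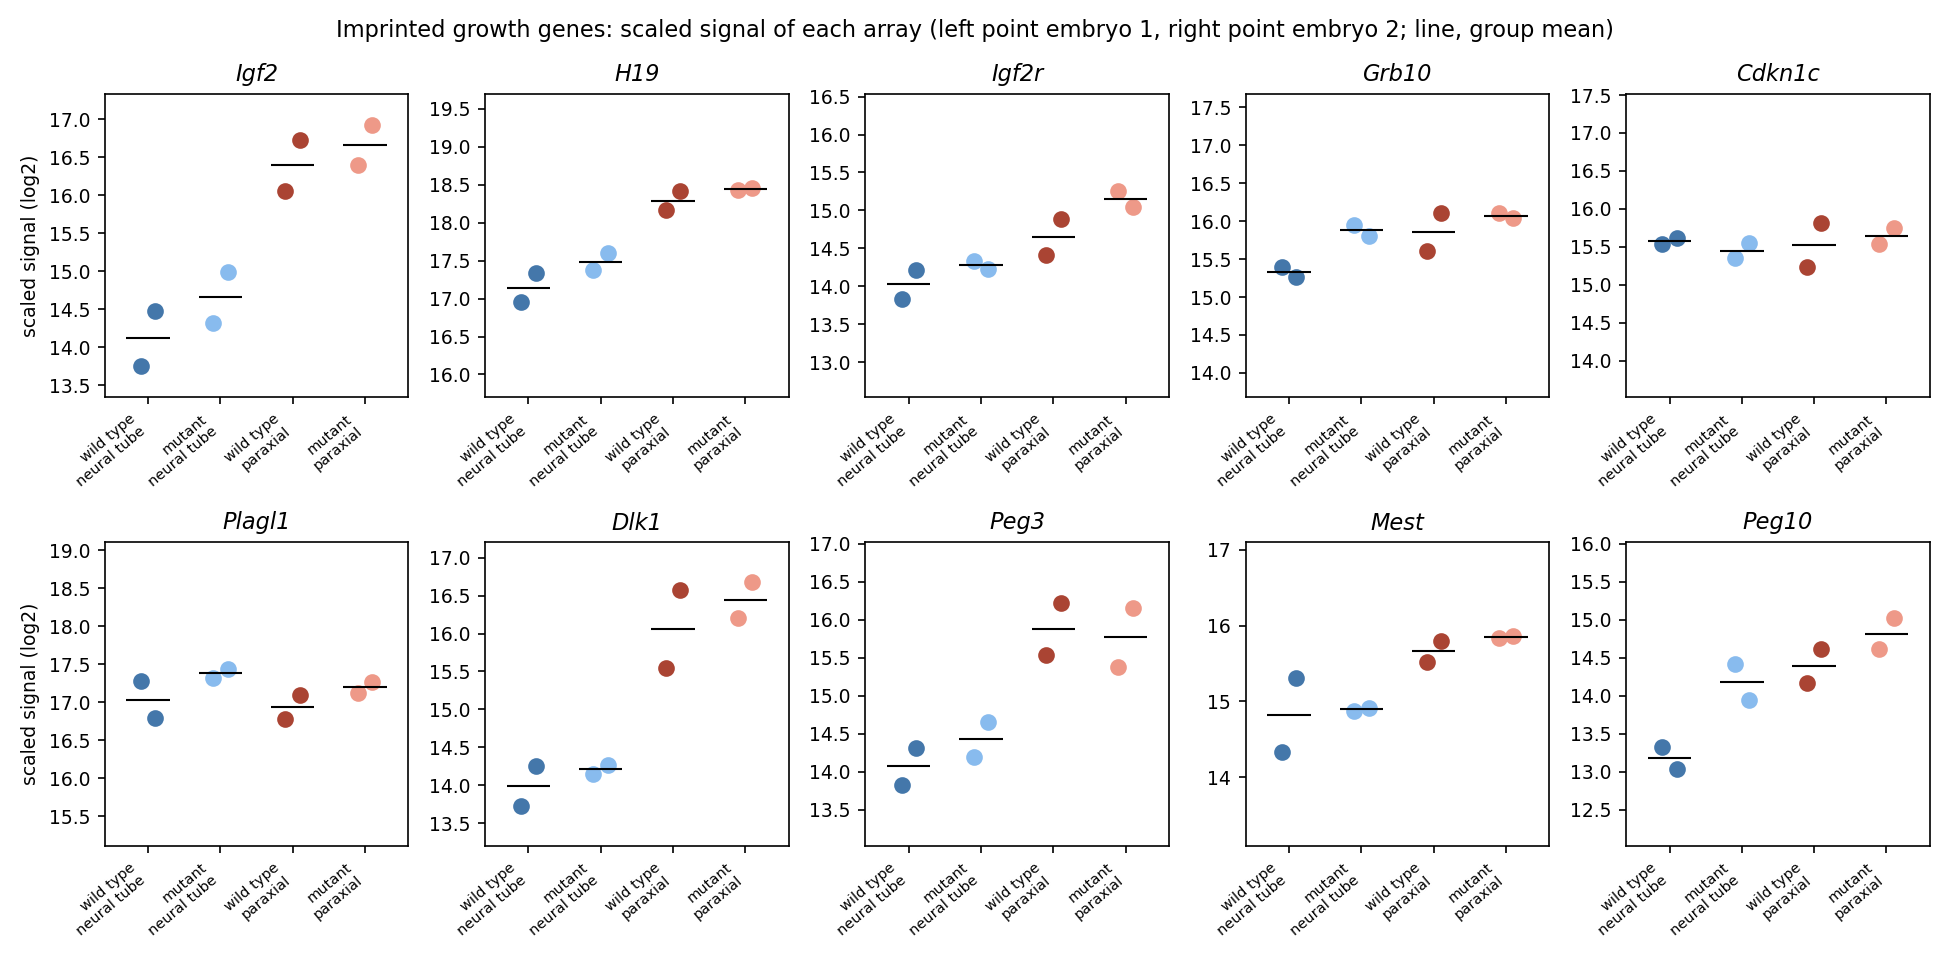
Scaled log2 signal (vertical axis, 1 panel per gene, all of the same height in log2 units) on each of the 8 arrays, by group on the horizontal axis; points are single arrays and lines are group means. In the panels of Igf2, H19, Dlk1, Peg3, Mest and Igf2r all 4 paraxial points lie above all 4 neural tube points, and in those of Cdkn1c and Plagl1 the tissues overlap.

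Igf2, which encodes the main fetal insulin-like growth factor, stood clearly higher in paraxial tissue, with a difference that its error does not separate from that of Dlk1. Its probe lies on chromosome 7 (build mm9) from 149839661 to 149839720 on the minus strand. In wild-type embryos 1 and 2 its level was 13.75 and 14.48 in neural tube and 16.06 and 16.73 in paraxial tissue. In mutant embryos 1 and 2 it was 14.32 and 14.99 in neural tube and 16.40 and 16.93 in paraxial tissue. The lowest paraxial value, 16.06, stood above the highest neural tube value, 14.99, and within each tissue the ranges of the genotypes overlapped. Within single embryos the paraxial value exceeded that of neural tube by 2.31 and 2.25 in wild type and by 2.09 and 1.94 in mutants. The difference of 2.28 ± 0.22 in wild type (limma adjusted p = 0.0103) and 2.01 ± 0.22 in mutants (adjusted p = 0.0117) was 2.15 ± 0.16 on average, a 4.43-fold higher signal in paraxial tissue (adjusted p = 0.0018). The 95% interval of the average ran from 1.78 to 2.52.

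H19, the long noncoding RNA transcribed from the maternal copy next to Igf2, also stood higher in paraxial tissue. It was read by 7 probes of 60 bases, printed here because they read 1 RNA at different levels and with different tissue differences. They are given 5′ to 3′ in the order of their position from the 3′ end of the transcript interval in the array files, all on the minus strand of chromosome 7 (mm9).
A_55_P1961127: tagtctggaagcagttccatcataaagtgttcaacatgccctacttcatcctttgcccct
A_30_P01021588: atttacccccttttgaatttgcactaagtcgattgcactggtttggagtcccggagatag
A_30_P01025068: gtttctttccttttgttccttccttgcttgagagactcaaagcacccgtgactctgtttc
A_30_P01028007: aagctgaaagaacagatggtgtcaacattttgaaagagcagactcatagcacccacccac
A_30_P01028827: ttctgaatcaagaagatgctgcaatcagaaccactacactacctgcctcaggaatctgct
A_30_P01026972: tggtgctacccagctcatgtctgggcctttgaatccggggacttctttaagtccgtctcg
A_55_P1961125: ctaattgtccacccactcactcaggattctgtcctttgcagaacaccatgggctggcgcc

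The probe A_55_P1961127 covers 149761492 to 149761551, A_30_P01021588 covers 149761693 to 149761752, and A_30_P01025068 covers 149761756 to 149761815. A_30_P01028007 covers 149761957 to 149762016, A_30_P01028827 covers 149762113 to 149762172, and A_30_P01026972, the brightest, covers 149762173 to 149762232. The farthest from the 3′ end, A_55_P1961125, covers 149762417 to 149762476. No mm9 gene models were used here, so exon boundaries are not stated. The 7 probes are not 7 measurements of the tissues, since they were read on the same 8 arrays.

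By the brightest probe, H19 was 16.95 and 17.34 in wild-type neural tube and 18.16 and 18.42 in wild-type paraxial tissue, in embryos 1 and 2. In mutant embryos it was 17.37 and 17.60 in neural tube and 18.43 and 18.45 in paraxial tissue. The tissues did not overlap, and the 4 within-embryo differences lay between 0.85 and 1.20. The average difference was 1.05 ± 0.11, a 2.07-fold higher signal in paraxial tissue (limma adjusted p = 0.00323), and it was called in wild type (1.14 ± 0.16) and in mutants (0.96 ± 0.16) alike.

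The other probes gave differences from 0.96 to 1.90, and 7 of 7 were called when each probe was tested on its own. In that test 5129 of all 42754 probes were called. The smallest difference, 0.96 ± 0.12, came from the probe nearest the 3′ end (A_55_P1961127), and the largest, 1.90 ± 0.17, from the next one, A_30_P01021588. The dimmest probe, A_55_P1961125, at the 73.9th percentile of brightness, read 11.41 and 11.95 in wild-type neural tube and 13.03 and 13.84 in wild-type paraxial tissue, with an average difference of 1.86 ± 0.24. The 3 brightest probes, all at or above the 99.4th percentile, gave 1.22, 1.17 and 1.05. These 3 span from 16.75 to 18.47 over the arrays, and their part of the scale, the bases of each probe and any difference between parts of the RNA were not tested as reasons for the spread.

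**Figure D2:**
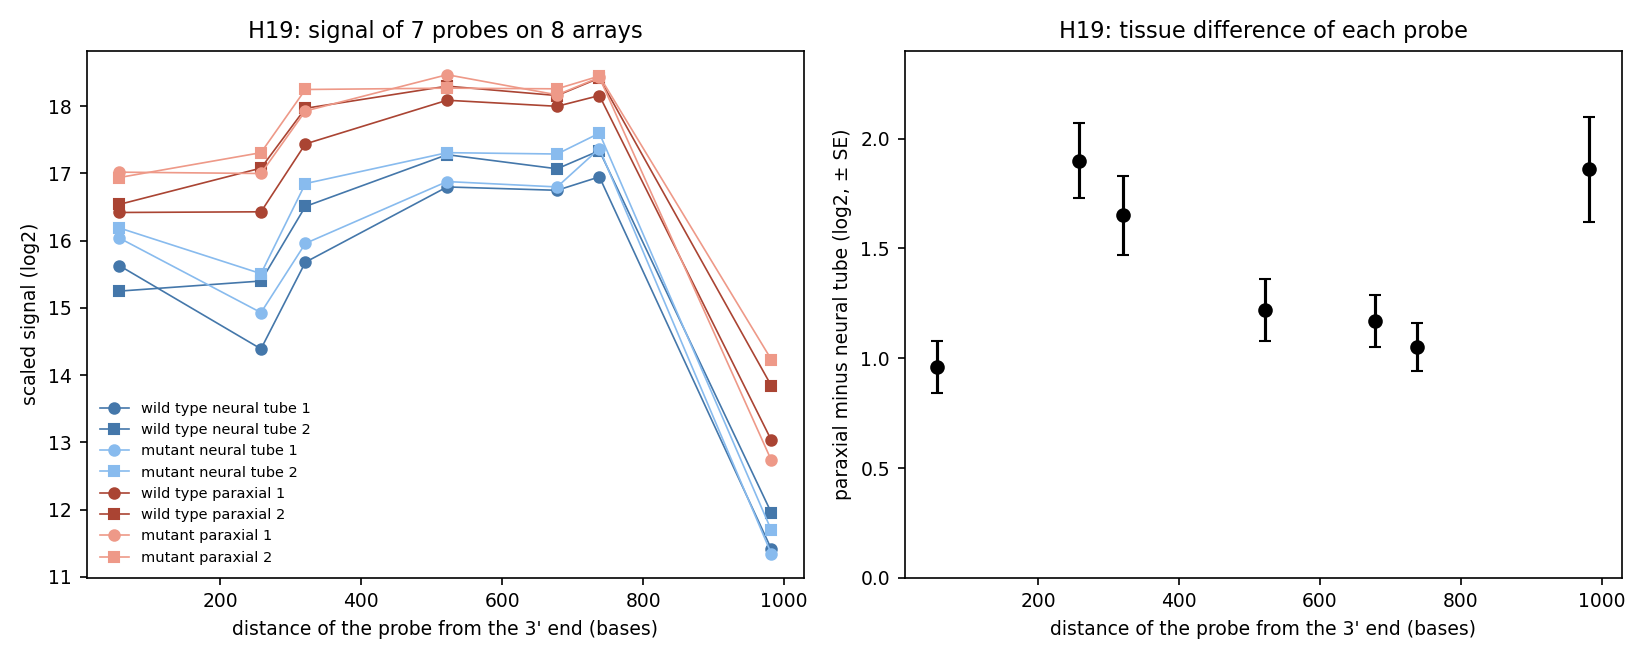
Left, scaled log2 signal of each H19 probe on each array against the probe's distance in bases from the 3′ end of the transcript interval; right, the tissue difference of each probe (paraxial minus neural tube, log2) with the SE of the limma fit. At every probe the 4 paraxial arrays lie above the 4 neural tube arrays, and the difference ranges from 0.96 to 1.90.

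Igf2r encodes the receptor that takes up Igf2 and sends it for degradation. Its 1 probe was spotted 10 times on each array, and the standard deviation between those spots was 0.032 to 0.09 on the log2 scale. The array files place it on chromosome 17 (mm9) from 12875253 to 12875263, which is only a part of the probe. It was 13.83 and 14.22 in wild-type neural tube, 14.41 and 14.89 in wild-type paraxial tissue, 14.34 and 14.23 in mutant neural tube and 15.25 and 15.04 in mutant paraxial tissue. All 4 paraxial values exceeded all 4 neural tube values, with 14.41 against 14.34 at the closest. The average difference was 0.74 ± 0.11 (limma adjusted p = 0.00869), or 1.67-fold. In mutants alone it was called (0.85 ± 0.16, adjusted p = 0.0313) and in wild type it was not (0.63 ± 0.16, adjusted p = 0.102), and the difference between these effects was itself not called (-0.23 ± 0.23, adjusted p = 0.969).

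Grb10 encodes an adaptor that binds the insulin and Igf1 receptors and dampens their signal. Its probe lies on chromosome 11 from 11833165 to 11833224. Its level was 15.40 and 15.26 in wild-type neural tube, 15.60 and 16.10 in wild-type paraxial tissue, 15.95 and 15.81 in mutant neural tube and 16.10 and 16.04 in mutant paraxial tissue. Paraxial tissue was the higher in 4 of 4 embryos, by 0.14 to 0.84, and the average difference of 0.36 ± 0.13 was not called (limma adjusted p = 0.138). The lowest value of paraxial tissue, 15.60 in wild-type embryo 1, lay below both mutant neural tube values.

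Cdkn1c, which encodes the cyclin-dependent kinase inhibitor p57, and Plagl1, which encodes a zinc finger transcription factor that regulates other imprinted genes, showed no tissue difference that passed the test. The Cdkn1c probe lies on chromosome 7 from 150644753 to 150644812, and the brightest Plagl1 probe on chromosome 10 from 12850832 to 12850891. Cdkn1c was 15.54 and 15.62 in wild-type neural tube and 15.23 and 15.81 in wild-type paraxial tissue. In mutants it was 15.35 and 15.55 in neural tube and 15.54 and 15.75 in paraxial tissue. The tissues overlapped fully, and the average difference of 0.07 (paraxial minus neural tube) had a 95% interval from -0.23 to 0.37.

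The brightest Plagl1 probe was 17.28 and 16.79 in wild-type neural tube, 16.78 and 17.10 in wild-type paraxial tissue, 17.32 and 17.44 in mutant neural tube and 17.12 and 17.27 in mutant paraxial tissue. Its average difference was -0.14 ± 0.15 (95% interval -0.49 to 0.20), with the paraxial value the higher in 1 of 4 embryos. The 4 Plagl1 probes ran from -0.38 to 0.03, and 0 of 4 were called, beside 5129 of all 42754 probes. For these genes the intervals leave out tissue differences of the size seen in Igf2, Dlk1 and Peg3.

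Dlk1, Peg3 and Mest mark growing mesoderm, and Peg10 is a retrotransposon-derived gene needed in the placenta. Dlk1 encodes a membrane protein of the Delta family that holds precursor cells undifferentiated. Its brightest probe lies on chromosome 12 from 110698502 to 110698561. It was 13.73 and 14.26 in wild-type neural tube and 15.54 and 16.57 in wild-type paraxial tissue. In mutants it was 14.15 and 14.27 in neural tube and 16.20 and 16.68 in paraxial tissue. The 4 neural tube values lay within 13.73 to 14.27 and every paraxial value was at least 15.54. The average difference was 2.14 ± 0.17, or 4.42-fold (limma adjusted p = 0.0018), and it was called in wild type (2.06 ± 0.24) and in mutants (2.23 ± 0.24). The other Dlk1 probe, A_66_P117477, gave 0.83 ± 0.15, which was called but smaller, so the size of the Dlk1 difference depends on the probe.

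Peg3 encodes a zinc finger protein expressed in mesoderm and muscle precursors, and its brightest probe lies on chromosome 7 from 6661407 to 6661466. It was 13.83 and 14.31 in wild-type neural tube, 15.54 and 16.22 in wild-type paraxial tissue, 14.20 and 14.65 in mutant neural tube and 15.38 and 16.16 in mutant paraxial tissue. The tissues did not overlap in either genotype, and the average difference was 1.58 ± 0.16, or 2.98-fold (limma adjusted p = 0.00273). Its dimmer probe, A_52_P235861, gave 2.26 ± 0.28.

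Mest encodes an enzyme of the alpha/beta hydrolase fold found in mesoderm, and its brightest probe lies on chromosome 6 from 30697385 to 30697444. It was 14.34 and 15.31 in wild-type neural tube, 15.52 and 15.80 in wild-type paraxial tissue, 14.88 and 14.92 in mutant neural tube and 15.83 and 15.86 in mutant paraxial tissue. Neural tube of wild-type embryo 2 was the highest of the neural tube arrays and lay 0.49 below its paraxial partner, where the other 3 embryos differed by 0.94 to 1.17. The average difference of 0.89 ± 0.16 was called (limma adjusted p = 0.0133). The 3 Mest probes gave 1.12, 0.89 and 0.52, and the last, spotted 10 times on each array, was not called (adjusted p = 0.085).

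The brightest Peg10 probe lies on chromosome 6 from 4704589 to 4704648. Peg10 was 13.33 and 13.03 in wild-type neural tube and 14.17 and 14.61 in wild-type paraxial tissue. In mutants it was 14.42 and 13.94 in neural tube and 14.61 and 15.02 in paraxial tissue. Mutant neural tube overlapped paraxial tissue, and the within-embryo differences varied the most of the 10 genes, from 0.19 in mutant embryo 1 to 1.58 in wild-type embryo 2. The average of 0.92 ± 0.18 was called (limma adjusted p = 0.0204), and the dimmer Peg10 probe gave 0.82. When the embryo entered the model as a fixed term, Peg10 was not called (adjusted p = 0.0818).

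**Figure D3:**
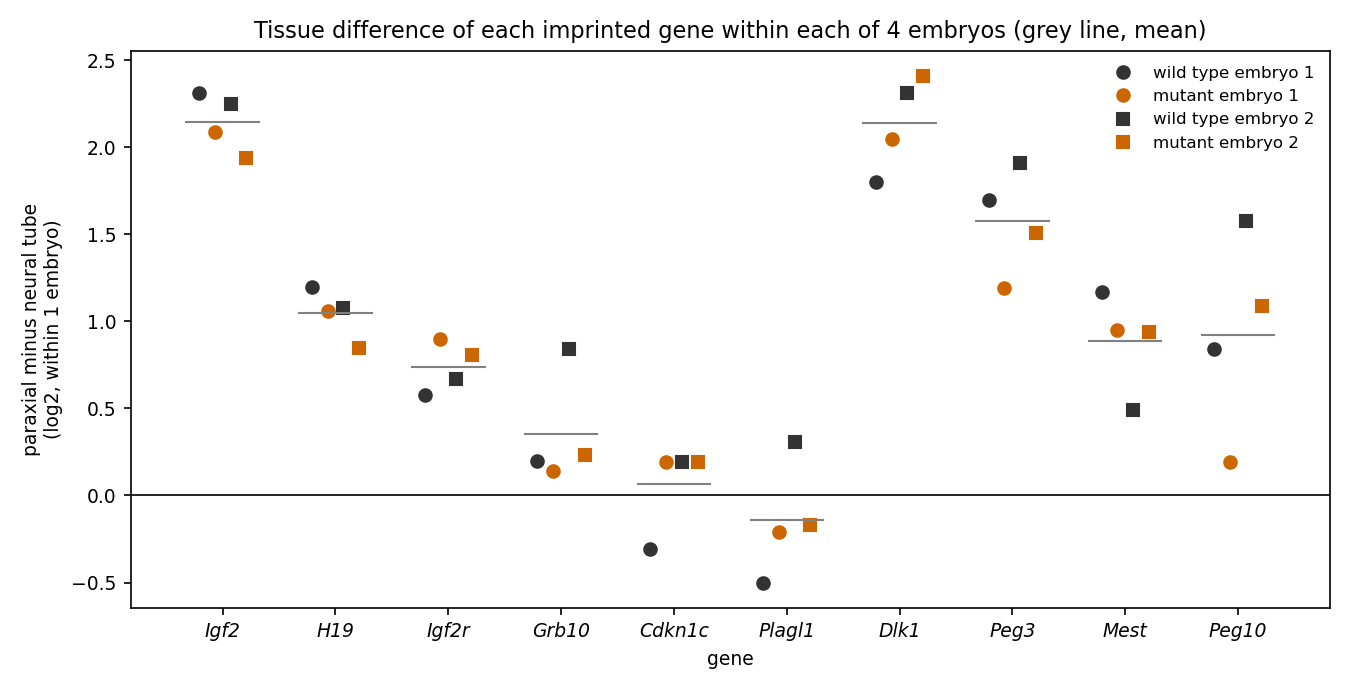
Paraxial minus neural tube difference (log2) of each gene within each of the 4 embryos; circles are embryo 1 and squares embryo 2 of each genotype, black wild type and orange mutant, and grey lines are means. The values of Igf2 lie between 1.94 and 2.31 and those of Dlk1 between 1.80 and 2.41, while those of Cdkn1c and Plagl1 lie on both sides of 0.

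Within wild-type embryos alone 4 of the 10 genes were called lower in neural tube (Igf2, Dlk1, Peg3 and H19), beside 2.45% of all genes called. Within mutants 5 of 10 were called (the same 4 and Igf2r), beside 5.85% of all genes. These counts rest on 2 embryos each and were 0 without the embryo in the model. The wild-type count was 0 without either wild-type embryo and 1 without either mutant embryo. The count in mutants was 0 without mutant neural tube 1 or 2, mutant paraxial tissue 2 or either mutant embryo, and 1 without mutant paraxial tissue 1. The count of 7 in the average was 4 without mutant neural tube 2, mutant paraxial tissue 2 or mutant embryo 2. In the average over genotypes Igf2, H19, Dlk1 and Peg3 kept their call in 24 of 24 fits, the fit described above and its alternatives. The calls of Mest, Igf2r and Peg10 were lost in some. Without the embryo in the model their adjusted p was 0.129, 0.113 and 0.0865. Without mutant neural tube 2 their adjusted p was 0.0768, 0.063 and 0.0972, and without mutant paraxial tissue 2 it was 0.075, 0.0534 and 0.0987. Without mutant neural tube 1 or mutant paraxial tissue 1 the adjusted p of Mest was 0.0687 or 0.0684 and that of Igf2r 0.0532 or 0.0627. Without the neural tube or the paraxial array of wild-type embryo 2 that of Peg10 was 0.0669 or 0.0614. With a whole embryo left out, Mest lost its call without mutant embryo 1 or 2 (0.108 and 0.122), Igf2r without mutant embryo 1 or 2 or wild-type embryo 2 (0.0865, 0.089 and 0.0658), and Peg10 without wild-type embryo 1 or 2 or mutant embryo 2 (0.0516, 0.175 and 0.155). Grb10 was called without the neural tube or the paraxial array of wild-type embryo 1 (adjusted p = 0.0326 and 0.0213).

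Several marker lists moved with the tissue difference. Among all genes tested, 12.0% were called in the mean of genotypes, in either direction, and the macrophage count below is near that share. In the mean of genotypes, the genes called lower in neural tube were 15 of 17 for sclerotome and mesenchyme (median -2.34), 15 of 18 for dermomyotome and myotome (median -2.53, with 1 called higher), 7 of 13 for endothelium (median -0.72), 5 of 10 for erythroid cells (median -0.51), 3 of 14 for surface ectoderm (median -0.38) and 1 of 8 for macrophages (median -0.60). Called higher there were 6 of 15 differentiated neuron genes (median 1.24) and 3 of 8 gut and notochord genes (median 1.58, with 1 called lower). In wild type alone 0 genes were called in the endothelium, erythroid and surface ectoderm lists (medians -0.43, -0.12 and -0.13). In mutants alone 7, 6 and 3 genes of these lists were called lower in neural tube (medians -1.21, -0.91 and -0.63). The share of all genes called was 2.45% in wild type and 5.85% in mutants. The mean of the sclerotome and mesenchyme list over 17 measured genes, relative to the mean of all arrays, ran from 1.05 to 1.39 on the paraxial arrays and from -2.04 to -0.40 on the neural tube arrays, the last in neural tube of wild-type embryo 2. Of the 17 markers, 12 were well above background on all 4 neural tube arrays. The myotome mean ran from 0.31 to 2.18 on paraxial arrays and from -1.72 to -0.82 on neural tube arrays. Of the 18 myotome markers, 14 were well above background on all 4 neural tube arrays. Cav3 was so on only 2 of 8 arrays and was highest in wild-type paraxial tissue (7.18 and 8.18). It passed the background filter only through that group, so its place among the 15 called adds no support. The mean of the 10 imprinted genes on the same scale ran from 0.10 to 0.72 on paraxial arrays and from -0.80 to -0.25 on neural tube arrays. The part of any of these lists in the levels of the imprinted genes was not tested. In captured tissue, fewer cells that express a gene and less RNA per cell cannot be told apart.

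Across the 8 arrays 6 of the members also went together, as a description. These 6 are the ones with no overlap between the tissues, so high correlations among them follow from that choice. Over these arrays, which share 1 slide and fall into 2 tissues, the pairwise Pearson correlations among Igf2, H19, Dlk1, Peg3, Mest and Igf2r ran from 0.82 to 0.99. Grb10 and Peg10 correlated at 0.93, Plagl1 with the other 9 genes at -0.39 to 0.44, and Cdkn1c at 0.18 to 0.43. Among 25647 genes above background on all arrays, those closest to Igf2 were Fhl3 (0.995), Gm7968 (0.993) and H19 (0.992). Closest to H19 were Myl9 (0.997), LOC638517 and Gm7968, to Dlk1 Col23a1 (0.994), Sh3d21 and Ccdc42, and to Mest Snai2 (0.993), Pdlim4 and Slc38a4. Peg3 had its own antisense transcript Peg3os (0.989) among its closest 3, and the strand of the labelled cDNA is not stated, so reads of the gene and its antisense partner may not be separate. Igf2r was closest to Dok2 (0.992), Peg10 to Pskh1 (0.990), Grb10 to LOC100048725 (0.985), Plagl1 to Arid1b (0.956) and Cdkn1c to Gm3823 (0.928). With 8 arrays and so many genes some high correlations arise in any case, and the values are given as likeness only.

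Promoter sequence was available from RefSeq (build GRCm38.p6) for 7 of the 10 genes, as 13 annotated starts. H19, Cdkn1c and Peg10 had no entry. The 250 bases before the start are shown for Igf2, Dlk1 and Peg3, the 3 genes with the largest tissue differences by their brightest probes, with the start of most CpG pairs taken for Igf2, which has 4. Matches to GGGGCCCC, the core bound by Plagl1, to the GC box GGGCGG and to the TATA box TATAAA, on either strand, are in capitals.
Igf2: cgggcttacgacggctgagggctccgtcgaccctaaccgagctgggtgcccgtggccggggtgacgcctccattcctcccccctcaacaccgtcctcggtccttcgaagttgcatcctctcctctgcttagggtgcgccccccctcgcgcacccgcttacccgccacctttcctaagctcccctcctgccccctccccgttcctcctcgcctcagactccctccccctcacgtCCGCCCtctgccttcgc
Dlk1: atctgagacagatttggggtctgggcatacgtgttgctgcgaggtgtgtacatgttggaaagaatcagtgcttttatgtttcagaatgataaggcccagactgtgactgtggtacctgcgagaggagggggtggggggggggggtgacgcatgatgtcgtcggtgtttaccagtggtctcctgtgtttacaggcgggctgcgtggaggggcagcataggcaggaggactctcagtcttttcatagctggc
Peg3: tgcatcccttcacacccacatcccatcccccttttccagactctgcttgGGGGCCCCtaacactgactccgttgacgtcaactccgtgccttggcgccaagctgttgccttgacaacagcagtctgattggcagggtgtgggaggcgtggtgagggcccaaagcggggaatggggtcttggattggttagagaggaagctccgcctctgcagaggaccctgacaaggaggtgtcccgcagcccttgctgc

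The Igf2 window is chromosome 7 from 142658805 to 142659054 and the Peg3 window chromosome 7 from 6730420 to 6730669, both on the minus strand, and the Dlk1 window is chromosome 12 from 109452573 to 109452822 on the plus strand. GGGGCCCC was found in 1 of the 13 windows, that of Peg3, beside 0.889% of 32851 windows of the same length. GGGCGG was found in 8 of 13 (of Igf2, Mest, Grb10, Plagl1 and Igf2r), beside 32.7% of all, and TATAAA in 0 of 13, beside 12.4%. Among the 8, the Mest windows that start at 30737800 and 30737803 overlap almost wholly. They hold the same match, which is thus counted more than once. CpG pairs numbered 8 before the Dlk1 and the Peg3 start. The Igf2 window shown, picked for the most CpG pairs, had 22, and the other Igf2 starts had 6, 10 and 1. The Grb10 starts had 8 and 40, those of Mest 7, 14 and 14, and those of Plagl1 and Igf2r 19 and 27. The median over all windows was 6. A match is a string of letters and not a binding site, and the arrays do not show which start was used.

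Between mutants and wild type, no difference in the 10 genes was called. In neural tube 0 of 10 were called and in paraxial tissue 0 of 10, beside 0% of all 28940 genes in each (by limma, 1050 and 971 genes had an unadjusted p under 0.05). In neural tube Peg10 had the largest difference, 1.00 ± 0.41 (unadjusted p = 0.0445, adjusted p = 0.921), with the mutant values 14.42 and 13.94 above the wild-type values 13.33 and 13.03. Grb10 and Igf2 followed with 0.55 ± 0.29 and 0.54 ± 0.35. H19, Peg3 and Plagl1 were between 0.34 and 0.36, Igf2r at 0.26, Dlk1 at 0.21, Mest at 0.08 and Cdkn1c at -0.12. By the brightest probe of each gene, Igf2r had the largest difference in paraxial tissue, 0.49 ± 0.25 (unadjusted p = 0.0964). Peg10 followed with 0.43 ± 0.41 and Dlk1 with 0.38 ± 0.38. The other 7 lay between -0.10 (Peg3) and 0.27 (Igf2). These ranks depend on the probe. Over all probes in paraxial tissue, Mest ran from 0.19 to 0.63, Dlk1 from 0.38 to 0.61 and H19 from 0.05 to 0.50. Peg10 ran from 0.16 to 0.43 there, Plagl1 from -0.28 to 0.25 and Peg3 from -0.35 to -0.10. In neural tube Mest ran from 0.08 to 0.65, H19 from -0.16 to 0.67 and Peg10 from 0.66 to 1.00. The values of the brightest probes also move with single arrays and embryos. With 1 left out, Peg10 in neural tube ran from 0.65 to 1.34, Grb10 from 0.29 to 0.81 and Igf2 from 0.17 to 0.91, and in paraxial tissue Igf2r ran from 0.25 to 0.73 and Peg10 from 0.09 to 0.77.

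The sign was positive for 9 of 10 genes in each tissue, with a median of 0.34 in neural tube and 0.24 in paraxial tissue, beside -0.007 and 0.031 over all genes. Bright genes as a whole leaned the same way, and the part of brightness in this count was not tested. Peg10 and Igf2r, the dimmest of the 10 genes by their brightest probes, stood at 1.00 and 0.26 in neural tube and at 0.43 and 0.49 in paraxial tissue. The dimmer Peg10 probe gave 0.66 and 0.16. Of the 2894 brightest genes, the top 10% by mean level, which hold 8 of these 10 genes, 80.1% were higher in mutant neural tube (median 0.226) and 86.7% in mutant paraxial tissue (median 0.251), beside 49.2% and 53.4% of all genes. Under quantile scaling the count of genes higher in mutants was 8 of 10 in neural tube and 4 of 10 in paraxial tissue, where H19 (-0.17), Cdkn1c (-0.12), Mest (-0.07), Plagl1 (-0.06) and Grb10 (-0.05) changed sign. Median scaling moved the median of all genes to 0.124 in paraxial tissue. Both mutant arrays lay above both wild-type arrays for 5 of 10 genes in neural tube (H19, Grb10, Plagl1, Igf2r and Peg10), beside 16.5% of all genes, and for 5 of 10 in paraxial tissue (H19, Mest, Plagl1, Igf2r and Peg10), beside 22.6%.

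**Figure D4:**
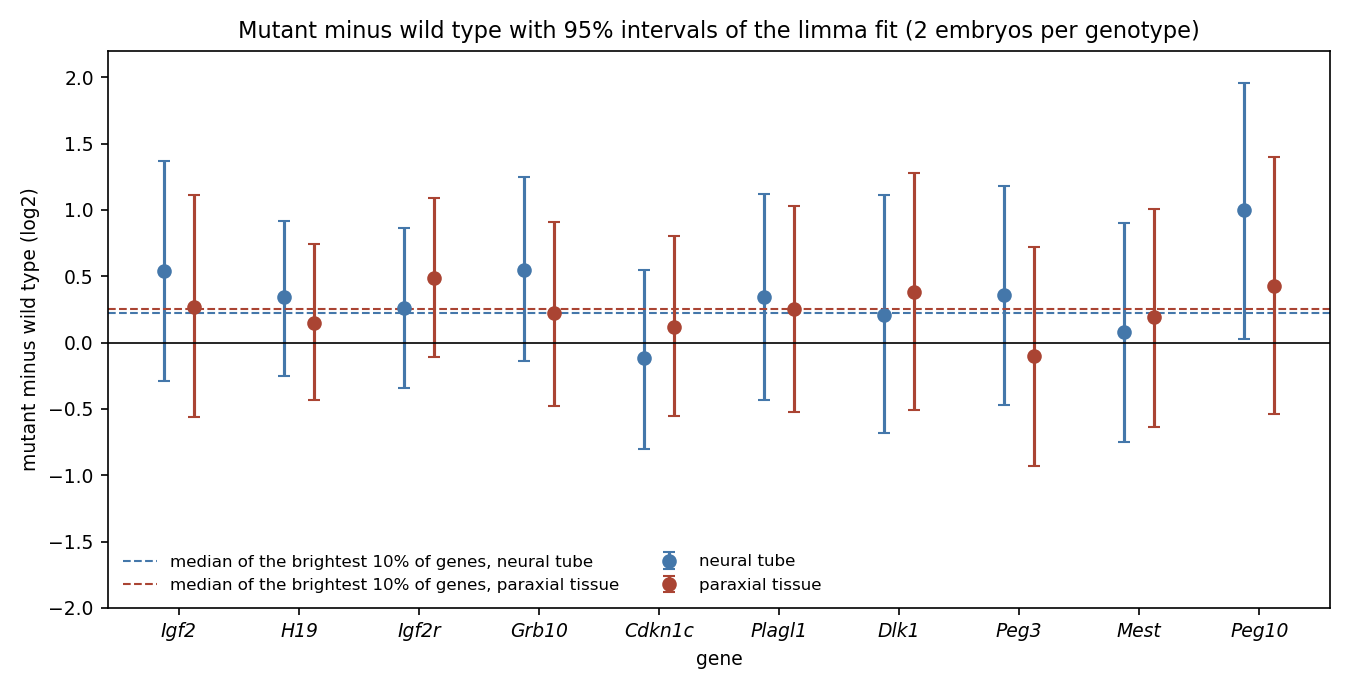
Mutant minus wild type (log2) of each gene in neural tube (blue) and paraxial tissue (red) with the 95% intervals of the limma fit; dashed lines are the medians of the 2894 brightest genes in each tissue. Of the 20 intervals only that of Peg10 in neural tube, from 0.03 to 1.96 before any adjustment, lies wholly above 0.

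The intervals set how large a change could have been missed. In neural tube they reached from -0.29 to 1.37 for Igf2 and from -0.25 to 0.92 for H19, and in paraxial tissue from -0.56 to 1.11 and from -0.43 to 0.74. A doubling of Igf2 lies inside both of its intervals. The H19 intervals are those of its brightest probe. Its dimmest probe, A_55_P1961125, gave -0.16 ± 0.54 in neural tube and 0.05 ± 0.54 in paraxial tissue, the lowest of the 7 probes. The highest, A_55_P1961127, gave 0.67 ± 0.28 and 0.50 ± 0.28. For Cdkn1c, an inhibitor of the cell cycle, the interval ran from -0.80 to 0.55 in neural tube and from -0.55 to 0.80 in paraxial tissue. The difference between the tissues in the mutant effect was called for 0 of 10 genes, beside 0% of all (1495 genes with an unadjusted p under 0.05), and was largest for Peg10 (0.57 ± 0.36) and Peg3 (0.46 ± 0.31).

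Marker lists also stood apart by genotype, with 0 genes called in any list, beside 0% of all genes. In neural tube 13 of 15 differentiated neuron genes were lower in mutants (median -0.73), with a list mean of -0.50 in mutant neural tube 1 against 0.85 to 1.05 on the other 3 neural tube arrays. Surface ectoderm genes were higher there for 10 of 14 (median 0.49) and gut and notochord genes for 5 of 8 (median 0.54). The gut and notochord list was itself higher in neural tube than in paraxial tissue (median 1.94 in wild type). It is thus not read here as a marker of cells from outside the neural tube. In paraxial tissue 13 of 13 endothelial, 10 of 10 erythroid and 14 of 14 surface ectoderm genes were higher in mutants (medians 0.63, 0.77 and 0.67), as were 8 of 8 gut and notochord genes (median 0.69). There 17 of 18 dermomyotome and myotome genes (median -1.06) and 12 of 15 neuron genes (median -0.93) were lower. Cav3 is counted in the 17 but adds no support, since it passed the background filter only through wild-type paraxial tissue. On single arrays the erythroid mean was 0.71 and 0.58 in mutant paraxial tissue against -0.14 and -0.12 in wild type. The myotome mean was 0.31 and 1.02 against 1.39 and 2.18. The neuron mean was -1.15 and -0.87 in mutant paraxial tissue against 0.57 and -0.87 in wild type. Only wild-type paraxial tissue 1 thus stood above both mutant arrays in the neuron list. Their part in the values of the imprinted genes was not tested.

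Other imprinted genes, from the domains of the members and from other domains, were set beside them. The share of all genes called between the tissues (mean of genotypes) was 12.0%, in either direction. Of 17 measured other paternally expressed genes 3 were called higher and 2 lower in neural tube (mean of genotypes), with a median of -0.01. Of 16 maternally expressed ones, 5 were called lower and 0 higher, with a median of -0.31. In the Dlk1 domain, Meg3, a long noncoding RNA, differed by -1.16 ± 0.20, Mirg, a microRNA host, by -0.97 ± 0.17 and Rtl1, a retrotransposon-derived gene, by -1.13 ± 0.21, and all were called (limma adjusted p = 0.0124, 0.0131 and 0.0181). Dio3, at the far end of that domain, was at -0.06. Zim1, next to Peg3, was lower by -2.32 ± 0.31 and Asb4, near Peg10, by -1.79 ± 0.14, while Sgce, which shares a promoter region with Peg10, was at 0.09 and not called. Copg2, beside Mest, differed by -0.88 ± 0.20 and Airn, the antisense RNA at Igf2r, by -0.52 ± 0.11, both called, and Kcnq1ot1, the antisense RNA of the Cdkn1c domain, was at -0.09 like Cdkn1c itself. Dio3, Sgce, Copg2 and Kcnq1ot1 were chosen for their domain after their values were seen. Mkrn3 (1.17 ± 0.17), Magel2 (0.75 ± 0.14) and Peg13 (0.63 ± 0.16) were called higher in neural tube, the first 2 from the Prader-Willi region.

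In the mutants 0 of these imprinted genes were called. The smallest unadjusted p-values were those of Slc22a18, a membrane transporter (1.21 ± 0.36 in paraxial tissue, unadjusted p = 0.0123), and Zdbf2 (0.79 ± 0.36 in neural tube, unadjusted p = 0.0672). Snrpn stood at 0.80 and Osbpl5 at -0.73 in neural tube, and Nap1l5 at -1.73 ± 0.88 and Cd81 at 0.43 in paraxial tissue. Ube3a was at 0.40 in neural tube.

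Some transcripts of the pathway through which Igf2 acts were lower in neural tube. Of all genes, 12.0% were called in this comparison (mean of genotypes), in either direction. Of 14 measured genes of IGF and insulin signalling, 4 were called lower and 0 higher, with a median of -0.28. These were Irs4, a substrate of the receptors (-2.78 ± 0.21, limma adjusted p = 0.0018), the transcription factors Foxo1 (-1.28 ± 0.13) and Foxo3 (-0.65 ± 0.14), which insulin-like signals restrain, and the adaptor Shc1 (-0.94 ± 0.17). Igf1r, the receptor through which Igf2 signals, was at 0.38 ± 0.10 and just missed the threshold (adjusted p = 0.0503), and Irs2 was at 0.01. Of 11 measured genes that bind or release IGFs, 4 were called lower and 1 higher. Igfbp3 (-1.80 ± 0.28), Igfbp5 (-1.06 ± 0.16) and Igfbp4 (-0.90 ± 0.16) encode binding proteins and Pappa2 (-1.20 ± 0.14) a protease that frees IGFs from them, while Igfbp2 was higher in neural tube (0.48 ± 0.11). Igf2 and these 3 binding proteins were thus higher in paraxial tissue alike.

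**Figure D5:**
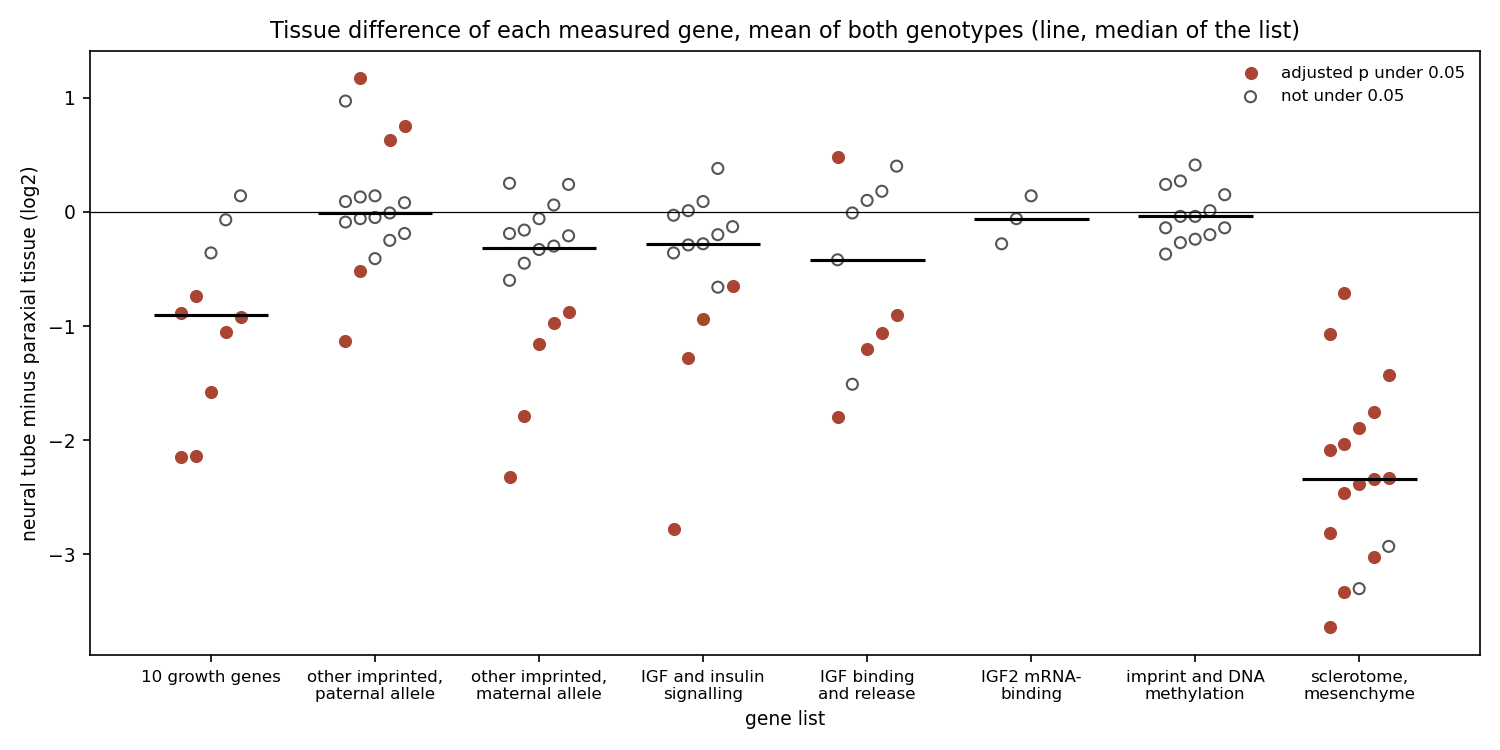
Neural tube minus paraxial tissue difference (log2, mean of genotypes) of each measured gene by list; filled points had an adjusted p under 0.05 and lines are medians. The 10 growth genes have a median of -0.91, the other paternally and maternally expressed genes -0.01 and -0.31, and the sclerotome and mesenchyme markers -2.34.

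In mutants 0 of these pathway genes were called. Pappa2 had the smallest unadjusted p, with -1.14 ± 0.30 in paraxial tissue (unadjusted p = 0.00747), where Igfbp5 was at -0.63 and Igfbp4 at 0.57. Pappa was at -0.59 and Irs4 at 0.80 in neural tube, and Insrr at -0.35 and Akt1 at 0.38 in paraxial tissue. Igfbp1 was well above background on both mutant paraxial arrays, on neither wild-type paraxial array and on 1 of the 4 neural tube arrays. It passed the background filter only through the mutant paraxial arrays, so no fold or test is given for it. Of the 3 proteins that bind IGF2 mRNA, 0 were called in any comparison. Igf2bp1 was at 0.84 ± 0.35 and Igf2bp3 at 0.76 ± 0.33 in mutant neural tube (unadjusted p = 0.05 and 0.0527), and Igf2bp2 at 0.14. None of the 13 measured genes that set, keep or remove DNA methylation or read imprinted regions was called either. The share of all genes called between the tissues (mean of genotypes) was 12.0%. Between the tissues Ctcf, which insulates Igf2 from its enhancers on the maternal copy, was at 0.27 ± 0.11 and Zfp445, which protects imprints, at 0.24 (neural tube minus paraxial tissue). Tet1 and Tet2, enzymes that oxidise DNA methylation, were at -0.27 and 0.41. In mutant neural tube Tet2 was at -0.87 and the replication-coupled methylation cofactor Uhrf1 at 0.57 ± 0.28, and in mutant paraxial tissue Dnmt3b was at 0.54 and Trim28 at 0.46.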

How the data were processed

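Total RNA from laser-captured tissue was measured on 8 arrays of 1 colour (Cy5), per the labels' protocols. Signals were extracted by the authors with Agilent Feature Extraction 11.0.1.1, per the submitters' processing notes. The deposited values are linear red-channel processed intensity, 1 file per array, on a design annotated on mm9 per the file headers. The authors' value table holds the same intensities within 0.497% and was used as an alternative.

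Of 62976 spots per array, 3671 controls were left out. Outlier spots were dropped and spots averaged per probe (55664 of 55681 probes). Log2 signals were centred on each array's 75th percentile, with 12.01 added to all. Probes had to be well above background in both arrays of some group (42754 passed), and the brightest probe stood for each of 28940 genes. Group means were fitted with limma 3.58.1 in R 4.3.3, with the embryo as a random block (correlation 0.603), 4 residual and 2.93 prior degrees of freedom. Both tissues of an embryo, which the labels name, deviated together (correlation across genes 0.562 for wild-type and 0.607 for mutant embryos). The code was tested on simulated arrays. All arrays lay on 1 slide, with replicate 1 in row 1 and replicate 2 in row 2. With the embryo as a random block, p-values between tissues rest mainly on the spread within these embryos. Those between genotypes also rest on the spread between these embryos.

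The genes and lists were chosen with earlier results of these data known. Named were all 10 genes and, of each list, up to 4 genes by smallest p between tissues, up to 2 in each mutant comparison, and the 3 genes most correlated with each member. Peg13 and Igfbp2, Igf1r and genes named for their domain fall outside this rule and were chosen after their values were seen. Alternatives were other scalings, background correction, filters, probe summaries, forms of the block, and each array or embryo left out.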

Additional observations from a re-analysis of the deposited data

How the results depend on the processing

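Over 23 alternatives the calls of Igf2, H19, Dlk1 and Peg3 in the mean tissue comparison held, and 0 of 10 genes were called in any mutant comparison or in the difference of the mutant effect between tissues. The mutant comparisons could not be fitted with the embryo as a fixed term, since embryos lie within genotypes. Without the replicate block (embryo left out of the model) the counts of genes called between tissues were 0 in wild type, 0 in mutants and 4 on average, against 4, 5 and 7. Taking the embryo as a fixed term instead gave 1 in wild type and 2 in mutants. With no filter on dim probes the count in mutants was 2. With the replicate number as a replicate block they were 4, 4 and 7, and wild-type and mutant arrays of 1 number shared a slide row only (r across genes 0.291 in both tissues). Leaving out each array or embryo gave counts of 0 to 6 in wild type, 0 to 6 in mutants and 4 to 8 on average, where a group left with 1 array was assumed to vary like the others and fits without an embryo kept the correlation of all 8 arrays, which could not be estimated from 6.

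Signs turned in uncalled values. Under quantile scaling these were Cdkn1c between tissues on average (0.01), Mest in mutant neural tube (-0.12), in mutant paraxial tissue H19 (-0.17), Cdkn1c (-0.12), Mest (-0.07), Plagl1 (-0.06) and Grb10 (-0.05), and in the mean mutant effect H19 (-0.07), Peg3 (-0.06) and Mest (-0.10). Under median scaling Cdkn1c was 0.09 in the mean mutant effect, and with the mean of kept probes Plagl1 was -0.01 in the wild-type tissue difference and H19 -0.02 in the difference of mutant effects. With 1 array or embryo left out, the tissue difference (neural tube minus paraxial) in wild type ran from -0.20 to 0.32 for Cdkn1c and -0.31 to 0.50 for Plagl1, and on average from -0.20 to 0.06 and -0.06 to 0.35. Mutant minus wild type in neural tube ran from -0.30 to 0.05 for Cdkn1c, -0.05 to 0.47 for Dlk1, -0.40 to 0.56 for Mest and -0.02 to 0.71 for Plagl1. In paraxial tissue it ran from -0.06 to 0.61 for Igf2, -0.17 to 0.41 for Cdkn1c, -0.14 to 0.90 for Dlk1, -0.49 to 0.28 for Peg3, -0.06 to 0.43 for Mest, -0.09 to 0.52 for Grb10 and -0.10 to 0.61 for Plagl1. In the mean it ran from -0.17 to 0.17 for Cdkn1c, -0.09 to 0.69 for Dlk1, -0.18 to 0.43 for Peg3 and -0.18 to 0.44 for Mest. The difference of mutant effects ran from -0.51 to 0.01 for Cdkn1c, -0.48 to 0.14 for Dlk1, -0.48 to 0.26 for Mest and -0.32 to 0.49 for Plagl1. The cause was not tested.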
